A study of Bos taurus with 4 samples.

Results

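Glycolysis, pyruvate metabolism and the tricarboxylic acid (TCA) cycle were examined through 49 named genes: sugar and lactate transporters, the glycolytic enzymes, lactate dehydrogenases, the mitochondrial pyruvate carrier, the pyruvate dehydrogenase complex and the enzymes of the cycle. The members were chosen by gene symbol, as every probe whose symbol in the platform annotation is one of the 49. Of the 49, 45 had at least 1 probe, with 70 probes among the 43794 on the array. MPC1 and MPC2 were found under the older symbols BRP44L and BRP44. No probe carried the symbol SLC2A5, GAPDH, PKM or DLST, so these 4 genes were not analysed here. A further 3 genes had a probe too dim to test, which left 42 of the 8398 tested genes. Of the 42, 39 were above background in all 8 samples, the exceptions being PFKP, ENO2 and SLC2A8.

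The samples were Holstein cattle embryos produced in vitro, at the early blastocyst stage, collected 168 h after fertilization. The embryos compared came from oocytes collected when the heifer was 8 months old and from oocytes of the same heifer at 14 months, so each of the 4 heifers served as its own control. At both ages the animals received a progesterone insert and 6 injections of 30 mg FSH at intervals of 12 h, oocytes were recovered 43 h after the last injection, and semen of 1 adult bull served all fertilizations. Pooled embryos of 1 heifer at the 2 ages were hybridised together on a two-colour EmbryoGENE array after 2 rounds of RNA amplification. In heifers 1 and 2 the 8-month embryos were labelled with Cy5 and the 14-month embryos with Cy3, and in heifers 3 and 4 the dyes were exchanged. Embryos grown in the laboratory from hormone-stimulated donors may differ from embryos conceived in the animal, and a pool gives no value for a single embryo.

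Glucose enters a cell through transporters, is phosphorylated by hexokinase and is split by glycolysis into pyruvate, which is either reduced to lactate or carried into mitochondria. There pyruvate dehydrogenase makes acetyl-CoA, citrate synthase joins it to oxaloacetate, and the cycle returns oxaloacetate through 2-oxoglutarate, succinyl-CoA, fumarate and malate. Cleavage-stage bovine embryos draw mainly on pyruvate and lactate, and uptake of glucose increases with compaction and formation of the blastocyst.

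Values below are log2 ratios of 8 over 14 months on 1 array (1 heifer), so a positive value is a brighter signal in the 8-month embryos. Background was corrected and each array was normalized by loess. The fitted ratio is that of limma with a term for the dye, with its standard error over 4 heifers. P-values were adjusted by Benjamini-Hochberg over all 8398 genes, and a gene passed where the adjusted p was under 0.05. The dye term absorbs any contrast between the 2 dye orientations, so this standard error leaves that contrast out. The orientations were used in different heifers, so dye and heifer cannot be told apart in that contrast. Each gene is represented by its brightest tested probe. In pooled embryos, fewer cells of a type and less RNA per cell cannot be told apart.

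The share of all probes above background was 36.6 to 44.7% in the 8-month samples and 26.9 to 51.1% in the 14-month samples, and on each array it was higher in Cy3 than in Cy5. Of the 70 member probes, 57, 57, 60 and 61 were above background in the 8-month samples of heifers 1 to 4, against 65, 64, 54 and 51 in their 14-month samples. The more frequent detection thus followed the Cy3 dye in every heifer. Of 10 trophectoderm markers, 9 to 10 were above background in the 8-month samples and 8 to 10 in the 14-month samples, and of 8 inner cell mass markers 7 to 8 and 6 to 8. Of 9 oocyte markers, 2 to 3 were detected in the 8-month samples and 0 to 4 in the 14-month samples, with ZP3, OOEP and MOS bright enough to test and GDF9, BMP15, ZP4, NLRP5 and ZAR1 in no sample. Of 10 cumulus and granulosa markers, 3 to 5 were detected at 8 months and 4 to 5 at 14 months. INHBA, CYP19A1, HSD3B1 and SERPINE2 of that list were tested, with ratios of -0.246, -0.179, -0.704 and 0.248 and adjusted p of 0.101 to 0.349, and FSHR, AMH, FOXL2 and TNFAIP6 were in no sample. The mean log2 intensity of the tested markers was 7.74 to 7.91 at 8 months and 7.73 to 7.77 at 14 months for the oocyte list, and 9.17 to 9.35 and 9.01 to 9.71 for the cumulus list. The part of such cells in the results was not tested.

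Citrate synthase (CS), which makes citrate from acetyl-CoA and oxaloacetate, was the 1 member of 42 that passed the test, and it was higher at 8 months. Over all genes 378 of 8398 passed, or 4.5%, so passing was no more frequent among the members than among all genes. When arrays were centred on their median and loess was left out, the median of all genes was -0.183, 12 members passed and all 12 were lower at 8 months, and CS did not pass (0.218, adjusted p = 0.244). At an unadjusted p under 0.05 there were 8 members, 19% of the 42, against 27.3% of all genes. Of these 8, PFKL, ENO1, PDHX and CS had positive ratios, and SLC2A1, IDH3G, SUCLG2 and MDH1 had negative ones. All 4 heifers gave one sign in 11 members, 26.2% of the 42, against 27.6% of all genes. The median ratio of the members was 0.05, with 25 positive and 17 negative, and that of all genes was -0.004. The median of the members was 0.016 without heifer 4 and 0.085 without heifer 3. The median size of the ratio, sign set aside, was 0.139 for the members and 0.156 for all genes. Counted over probes, 1 of 59 tested member probes passed, a CS probe, where 332 of 17685 probes, or 1.88%, did so.

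**Figure D1:**
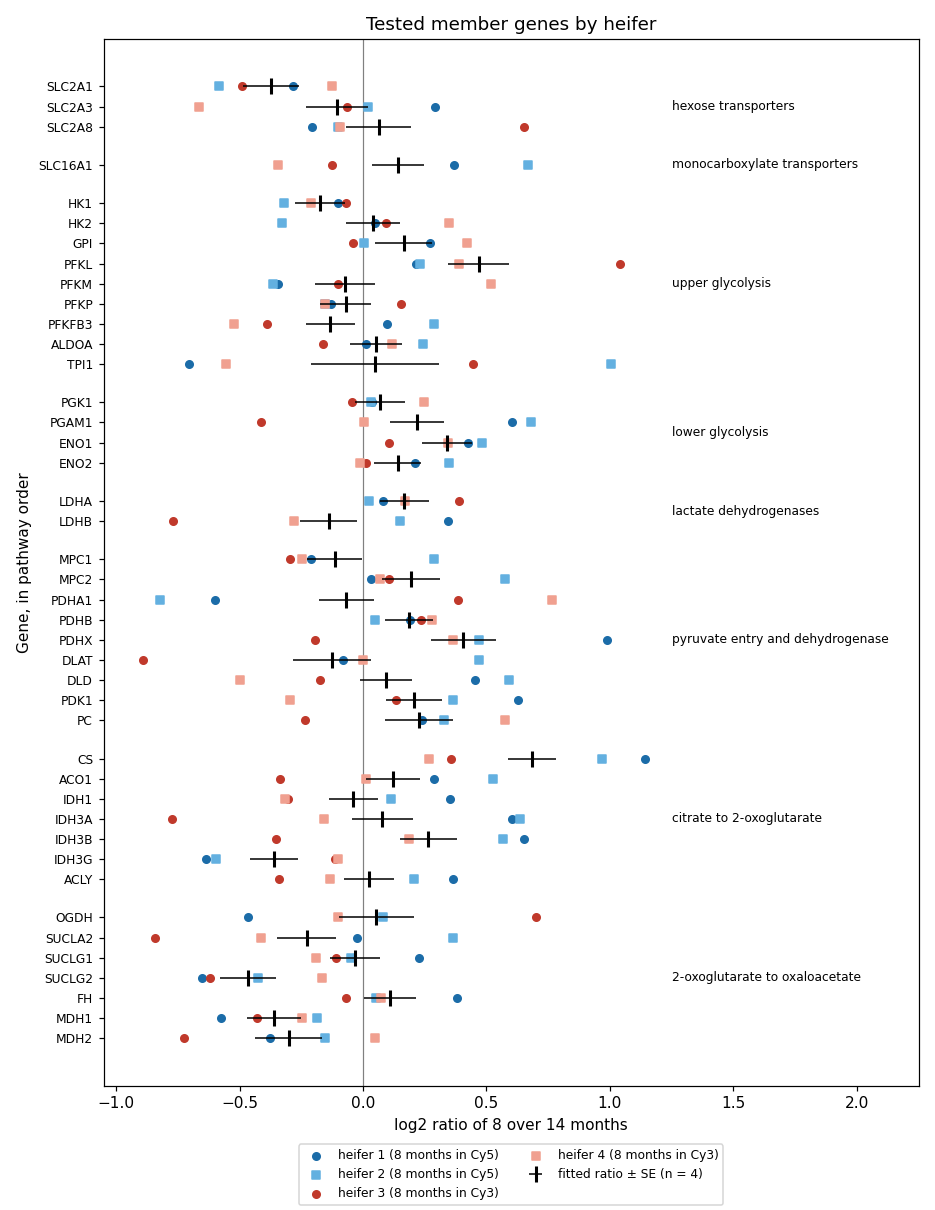
Log2 ratio of 8 over 14 months (horizontal axis) of the 42 tested genes in pathway order from the top; points are heifers, blue for 8-month embryos in Cy5 and red for 8-month embryos in Cy3, and the black bar is the fitted ratio with its standard error (n = 4). CS has 4 positive values from 0.266 to 1.144, while for 24 genes the means of the blue and the red points lie on opposite sides of 0.

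The CS result rests on probe EMBV3_34227. As deposited, its median foreground intensity was 39536, 46482, 53694 and 46575 in the 8-month samples of heifers 1 to 4, against 20116, 24075, 37330 and 37851 in their 14-month samples. The 8-month signal was the brighter one on every array before any correction, by 1.97, 1.93, 1.44 and 1.23 times. The lowest 8-month value exceeded the highest 14-month value. Other members were also brighter at 8 months on every array before correction. Among them was PFKFB3 (1.38, 1.31, 1.59 and 1.38 times), whose fitted ratio was negative (-0.132). The sign before correction therefore does not by itself set CS apart. None of the CS spots of this probe reached the scanner's limit of 65535. After normalization the ratios were 1.144, 0.97, 0.358 and 0.266 in heifers 1 to 4. The fitted ratio was 0.684 ± 0.098 (SE, n = 4), a 1.61-fold difference with an adjusted p of 0.0313 and a 95% interval of 0.459 to 0.910 on the log2 scale. The SD over the 4 heifers was 0.437, because the mean ratio was 1.057 in heifers 1 and 2 and 0.312 in heifers 3 and 4. The normalized log2 intensity averaged 15.49 ± 0.10 at 8 months and 14.80 ± 0.50 at 14 months (SD, n = 4 each). The 8-month values of CS thus lay close together, and the spread was in the 14-month values, which were 14.21 and 14.56 in Cy3 and 15.22 and 15.22 in Cy5.

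Of the other CS probes, EMBV3_27730 was also positive in every heifer, with ratios of 0.595, 0.318, 0.112 and 0.163 and a fitted ratio of 0.297 ± 0.098. Probe EMBV3_35429 had -0.261, -0.128, 0.927 and 0.382, so its sign followed the dye orientation, and its fitted ratio was 0.230 ± 0.117. The remaining probe was above background in no sample. Neither of the 2 dimmer tested probes passed over all probes, and with the mean of the 3 tested probes the gene had 0.404 with an adjusted p of 0.0622. The sources used here do not say which transcripts the 3 probes detect. Of 15 alternative analyses, 5 leave the fitted ratio of CS as it is and alter only its error or its adjustment. In the other 10 CS kept its direction, and it passed in 4 of them, or in 7 of all 15. It did not pass without heifer 1, 2 or 3 (adjusted p = 0.226, 0.117 and 0.0578), without a dye term (0.118), with unmoderated errors (0.268), with mean pixel intensity (0.0793) or under median centring.

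Of 10 markers of the trophectoderm, the outer layer of the blastocyst, 2 were higher at 8 months, like CS, and 1 was lower. Those that passed made up 30% of the list, against 4.5% of all genes. The list was chosen with earlier results of these data known and was not tested as a set. Counts this small say nothing particular about trophectoderm genes. GATA2 had 0.953, 0.912, 0.281 and 0.276 (adjusted p = 0.0313) and TEAD4 had 0.908, 0.715, 0.381 and 0.253 (adjusted p = 0.0351), both larger in heifers 1 and 2, as CS was. DAB2 of the same list was lower at 8 months (-0.822, adjusted p = 0.0313), and the other 7 of the 10 did not pass. Over the whole list the mean log2 intensity was 11.49 to 12.04 in the 8-month samples and 11.67 to 11.81 in the 14-month samples. Of 8 inner cell mass markers 0 passed (limma), and 2 had an unadjusted p under 0.05, 25% against 27.3% of all genes. The mean log2 intensity of that list was 9.76 to 9.85 at 8 months and 9.40 to 9.81 at 14 months. The part of the cell lineages in the CS result was not tested.

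**Figure D2:**
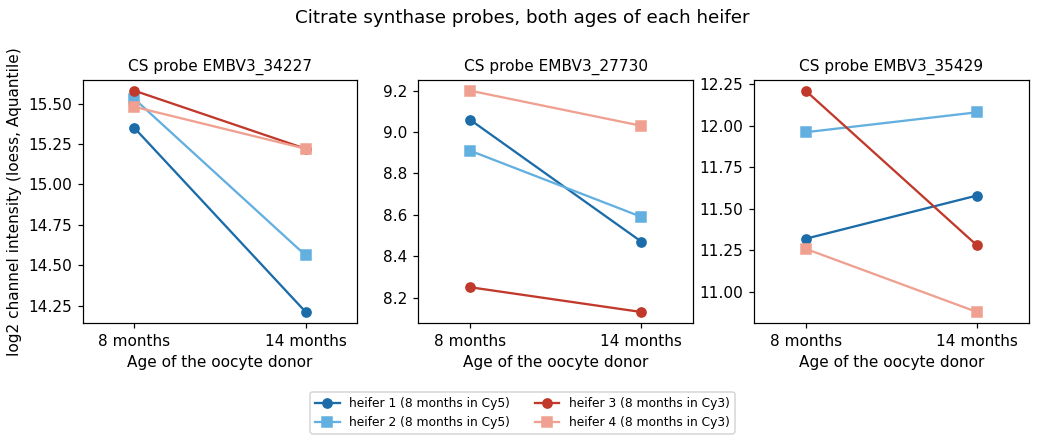
Normalized log2 channel intensity of the 3 tested CS probes, each in its own panel with its own vertical scale, in the 8-month (left) and 14-month (right) embryos of each heifer; a line joins the ages of 1 heifer. The line falls towards 14 months in 4 of 4 heifers for EMBV3_34227 and EMBV3_27730 and in heifers 3 and 4 for EMBV3_35429.

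At the entry of sugar, 0 of 3 tested hexose transporters passed, and 1 had an unadjusted p under 0.05. SLC2A1, the glucose carrier GLUT1, had ratios of -0.285, -0.584, -0.491 and -0.126, all below 0, and a fitted ratio of -0.372 ± 0.112 (adjusted p = 0.0853). Its other tested probe had 0.090, 0.002, 0.217 and 0.109, all above 0, so the sign differed between the probes. That probe was dim, with log2 intensities of 7.53 to 7.87, and was over background in 3 of the 14-month samples. It cannot settle the direction of SLC2A1. SLC2A3, the high-affinity carrier GLUT3, had a mean log2 intensity of 14.60 ± 0.57 at 8 months and 14.70 ± 0.60 at 14 months (SD, n = 4 each). Its ratios were 0.291, 0.020, -0.063 and -0.665 and the fitted ratio was -0.104 ± 0.125 (adjusted p = 0.618). SLC2A8, a hexose transporter of internal membranes, had -0.208, -0.101, 0.654 and -0.091 (0.063 ± 0.132, adjusted p = 0.786), with heifer 3 alone above 0.

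Lactate and pyruvate cross the membrane through monocarboxylate transporters. SLC16A1 had 0.369, 0.667, -0.125 and -0.343, positive in heifers 1 and 2 and negative in heifers 3 and 4, with a fitted ratio of 0.142 ± 0.106 (adjusted p = 0.407). Its 3 probes had fitted ratios of 0.02 to 0.142. SLC16A3, a lactate exporter, was above background in none of the 8 samples and was not tested.

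In upper glycolysis, from hexokinase to the trioses, 0 of 9 tested genes passed. The largest ratio was that of PFKL, a liver-type subunit of phosphofructokinase, the enzyme that commits sugar to glycolysis. PFKL had 0.213, 0.229, 1.04 and 0.391, positive in every heifer and largest in heifer 3. Its foreground intensity as deposited was 5283, 3158, 5407 and 4318 in the 8-month samples, against 5018, 2900, 1779 and 2637 in the 14-month samples. The fitted ratio was 0.469 ± 0.124, a 1.38-fold difference (adjusted p = 0.0647), and it passed only without heifer 4 (0.631, adjusted p = 0.0352). The muscle subunit PFKM had -0.343, -0.365, -0.101 and 0.518 (-0.073 ± 0.122, adjusted p = 0.731). The platelet subunit PFKP had -0.130, -0.154, 0.155 and -0.152 (-0.070 ± 0.103, adjusted p = 0.689), with a signal over background in 3 of the 8-month samples and 2 of the 14-month samples. The ratio of PFKL exceeded that of PFKP in every heifer, by 0.343, 0.384, 0.885 and 0.544, and that of PFKM in 3 of 4. PFKP was dim, with log2 intensities of 7.31 to 7.81, and entered the test through the 8-month samples alone, so its difference from PFKL is a description.

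Hexokinase traps glucose in the cell as glucose 6-phosphate. HK1 had -0.101, -0.321, -0.067 and -0.212, negative in every heifer, and the lowest fitted ratio of upper glycolysis (-0.175 ± 0.101, adjusted p = 0.289). HK2 had 0.049, -0.326, 0.094 and 0.347 (0.041 ± 0.110, adjusted p = 0.838), and its 3 tested probes had fitted ratios of 0.031 to 0.159. The remaining tested genes of this stretch were GPI, ALDOA, TPI1 and PFKFB3, which makes the activator of phosphofructokinase. Their fitted ratios were between -0.132 for PFKFB3 and 0.165 for GPI, with adjusted p of 0.378 to 0.924. TPI1, triose phosphate isomerase, had the greatest spread of all members, with -0.703, 1.004, 0.446 and -0.555 (SD 0.816), so heifers with the same dye orientation disagreed in sign. ALDOC was above background in none of the 8-month samples and in 2 of 4 at 14 months, those of heifers 1 and 2, and was not tested.

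In lower glycolysis 0 of 4 tested genes passed, and the 3 detected in all 8 samples had positive fitted ratios, with a median of 0.22 (of the 3, ENO1 alone was positive under median centring). ENO1, the main enolase of embryonic cells, had 0.425, 0.483, 0.107 and 0.346, positive in every heifer, and a fitted ratio of 0.340 ± 0.100 (adjusted p = 0.0821). The deposited foreground of ENO1 was 2204, 2325, 3634 and 1507 in the 8-month samples, against 1765, 1812, 2282 and 865 in the 14-month samples. Its other tested probe had -0.233, 0.092, 0.020 and -0.135 and a fitted ratio of -0.064. That probe was dim, over background in 3 of the 8-month samples and 2 of the 14-month samples, and cannot settle the direction of ENO1. ENO2, the enolase of neurons, was over background in 4 of the 8-month samples and 2 of the 14-month samples, so it entered the test through the 8-month samples alone, and its fitted ratio was 0.140. PGAM1, phosphoglycerate mutase, had 0.604, 0.682, -0.413 and 0.006, with the positive values mainly in heifers 1 and 2. PGK1, phosphoglycerate kinase, had 0.038, 0.032, -0.044 and 0.249 and the lowest fitted ratio of this step (0.069 ± 0.102, adjusted p = 0.694). The ends of this stretch, GAPDH and PKM, had no probe under those names.

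Lactate dehydrogenase interconverts pyruvate and lactate, and neither of its tested subunits passed. LDHA had 0.081, 0.026, 0.389 and 0.172, positive in every heifer, with a fitted ratio of 0.167 ± 0.099 (adjusted p = 0.303). Its other tested probe had 0.033, 0.278, -0.180 and -0.032 (0.025 ± 0.098), so the sign in heifers 3 and 4 depended on the probe. LDHB had 0.345, 0.151, -0.769 and -0.278, of opposite sign in the 2 dye orientations, with -0.138 ± 0.115 (adjusted p = 0.464). On the brighter probe, the ratio of LDHA exceeded that of LDHB in heifers 3 and 4 (differences of 1.158 and 0.449). In heifers 1 and 2 the ratio of LDHA was the lower one (differences of -0.264 and -0.125).

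Of 9 genes that bring pyruvate into mitochondria and convert it, 0 passed, 6 fitted ratios were positive and 3 negative (1 and 8 under median centring), and the median was 0.188. That median was 0.059 without heifer 2 and 0.100 without heifer 3. MPC1 and MPC2 form the pyruvate carrier of the inner mitochondrial membrane. MPC1 had -0.209, 0.288, -0.294 and -0.247 and MPC2 had 0.031, 0.577, 0.104 and 0.068, so both were highest in heifer 2. The ratio of MPC1 was below that of MPC2 by nearly the same amount in each heifer (differences of -0.24, -0.289, -0.398 and -0.314, SD 0.066). PDHX, which binds the E3 subunit to the core of the dehydrogenase complex, had the largest fitted ratio of this step, with 0.990, 0.471, -0.196 and 0.364 (0.407 ± 0.133, adjusted p = 0.103). DLAT, the acetyltransferase that forms the core, had the lowest, with -0.082, 0.472, -0.889 and -0.001 (-0.125 ± 0.159, adjusted p = 0.64).

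The E1 subunits of pyruvate dehydrogenase differed in how far their ratios varied between the dye orientations. PDHA1, the catalytic alpha subunit, had -0.598, -0.822, 0.385 and 0.767, the largest dye term of any member (-0.643), and a fitted ratio of -0.067 ± 0.110 (adjusted p = 0.724). PDHB, the beta subunit, had 0.189, 0.050, 0.234 and 0.280, positive in every heifer with an SD of 0.0992, the smallest of all members, and a fitted ratio of 0.188 (adjusted p = 0.242). Its second probe was also positive in every heifer, with 0.337, 0.235, 0.358 and 0.157. It did not pass over all probes (0.272 ± 0.095, unadjusted p = 0.0243, adjusted p = 0.137). DLD, the shared E3 subunit, had 0.455, 0.591, -0.174 and -0.498, which changed sign with the dye. PDK1, a kinase that inhibits the complex, had a fitted ratio of 0.207 (adjusted p = 0.269). Pyruvate carboxylase (PC), which makes oxaloacetate from pyruvate, had 0.239, 0.330, -0.233 and 0.576 (0.228 ± 0.138, adjusted p = 0.31).

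**Figure D3:**
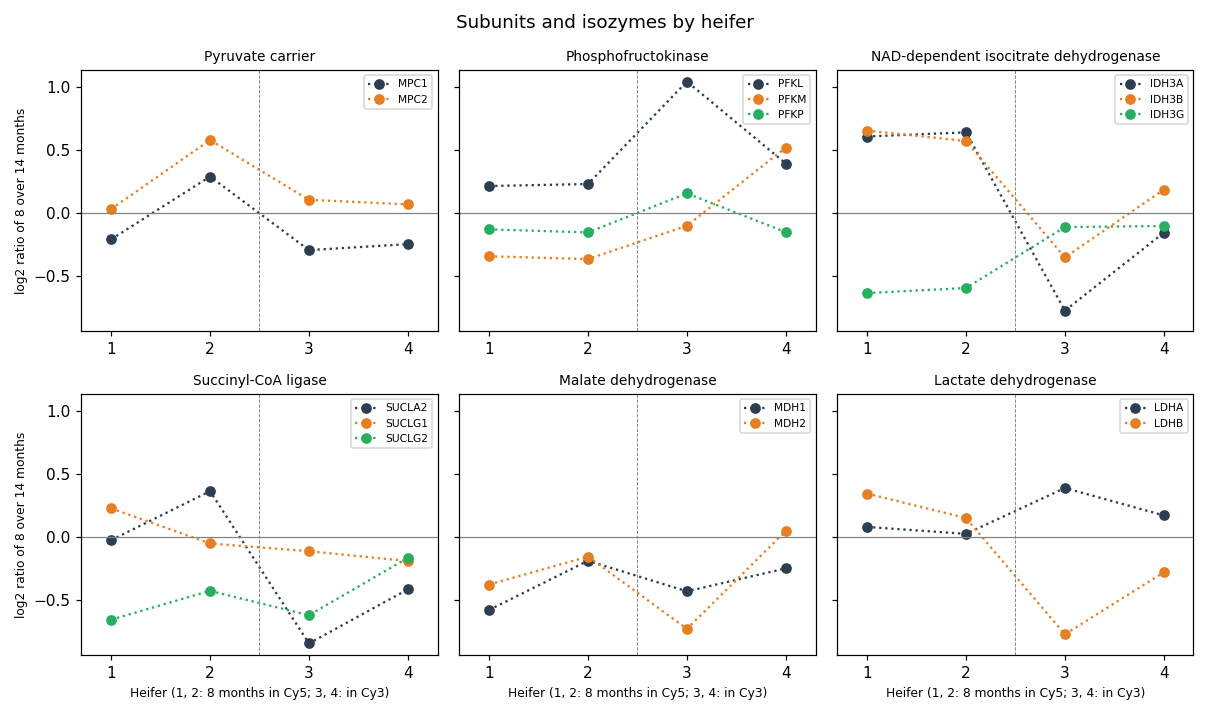
Log2 ratio of 8 over 14 months (vertical axis) of the subunits or isozymes of 6 enzymes and carriers in heifers 1 to 4 (horizontal axis); a dashed line separates the heifers with 8-month embryos in Cy5 (1, 2) from those in Cy3 (3, 4), and dotted lines join the values of a gene for the eye only. MPC1 lies below MPC2 in all 4 heifers, while IDH3A and IDH3B lie above IDH3G in heifers 1 and 2 and IDH3A lies below it in heifers 3 and 4.

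In the first part of the cycle, from citrate to 2-oxoglutarate, CS passed and the other 6 tested genes did not. The NAD-dependent isocitrate dehydrogenase is built of alpha, beta and gamma subunits, and none of the 3 genes passed. IDH3A, the alpha subunit, had 0.605, 0.638, -0.773 and -0.156 (0.079 ± 0.122, adjusted p = 0.708). IDH3B had 0.652, 0.569, -0.352 and 0.185 (0.264 ± 0.116, adjusted p = 0.186). IDH3G, the gamma subunit, had -0.634, -0.594, -0.112 and -0.103, negative in every heifer, with a fitted ratio of -0.361 ± 0.096 (adjusted p = 0.0647). Before normalization IDH3G was dimmer at 8 months in heifers 1 and 2 (ratios of foreground 0.615 and 0.622) and brighter at 8 months in heifers 3 and 4 (1.49 and 1.33). A second IDH3G probe was negative in every heifer, with -0.274, -0.209, -0.261 and -0.328 (-0.268 ± 0.091, unadjusted p = 0.0214). That probe was over background in 2 of the 8-month samples and 3 of the 14-month samples. It entered the test through the 14-month samples alone, so its p is a description and not support for a difference. The last IDH3G probe had -0.298, -0.052, 0.503 and 0.337 (0.123 ± 0.098).

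Isocitrate is also oxidised by NADP-dependent enzymes. IDH1, the cytosolic one, had a mean log2 intensity of 14.93 ± 0.09 at 8 months and 14.97 ± 0.28 at 14 months (SD, n = 4 each). Its ratios were 0.354, 0.112, -0.305 and -0.315, of opposite sign in the 2 orientations (-0.039 ± 0.100, adjusted p = 0.833). IDH2, the mitochondrial one, was not tested, since its signal was over background in 0 of the 8-month samples and 2 of the 14-month samples, both in Cy3. ACLY, which splits exported citrate for lipid synthesis, had 0.363, 0.208, -0.342 and -0.132 (0.024 ± 0.101, adjusted p = 0.899). ACO1, cytosolic aconitase, had a fitted ratio of 0.122 (adjusted p = 0.493).

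From 2-oxoglutarate to oxaloacetate, 0 of 7 tested genes passed, 5 fitted ratios were negative and 2 positive (7 and 0 under median centring), and the median was -0.228. That median was -0.131 without heifer 1 and -0.122 without heifer 3. SUCLG2, the GDP-forming beta subunit of succinyl-CoA ligase, had the lowest ratio of all members, with -0.653, -0.425, -0.618 and -0.164. Its normalized log2 intensity averaged 12.53 ± 0.27 at 8 months and 12.99 ± 0.13 at 14 months (SD, n = 4 each). The fitted ratio was -0.465 ± 0.114, a 1.38-fold difference, and it missed the threshold (adjusted p = 0.0563). It passed in 4 of 15 alternatives. They were the authors' deposited log2 ratios (adjusted p = 0.0495), a trended and robust prior (0.0288), leaving out heifer 4 (0.0449) and median centring (0.0015). Under median centring the median of all genes was itself -0.183. SUCLA2, the ADP-forming beta subunit, had -0.024, 0.364, -0.841 and -0.413 (-0.228 ± 0.119, adjusted p = 0.245). Their common alpha subunit SUCLG1 had a ratio near 0 (-0.031 ± 0.102, adjusted p = 0.873).

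Malate dehydrogenase closes the cycle, and MDH1 in the cytosol takes part in the malate-aspartate shuttle. MDH1 had -0.576, -0.187, -0.429 and -0.247, negative in every heifer, and -0.359 ± 0.109 (adjusted p = 0.0866). Its foreground was 7330, 15689, 21481 and 14576 in the 8-month samples, against 12104, 18439, 24061 and 15659 in the 14-month samples. It was the single member that was dimmer at 8 months on every array before correction. How many of all genes were so was not counted, so this sign is a description. Its second probe was negative in every heifer too, with a fitted ratio of -0.131. MDH2, the mitochondrial enzyme, had -0.375, -0.154, -0.726 and 0.049 (-0.301 ± 0.137, adjusted p = 0.197). FH, fumarase, had 0.381, 0.051, -0.068 and 0.072, the highest fitted ratio of this step (0.109 ± 0.105, adjusted p = 0.528). OGDH, the first subunit of the 2-oxoglutarate dehydrogenase complex, had -0.466, 0.080, 0.699 and -0.101 (0.053, adjusted p = 0.85).

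By step, the median ratio less that of all genes was -0.225 from 2-oxoglutarate to oxaloacetate. It was 0.192 for pyruvate entry and dehydrogenase. In lower glycolysis it was 0.183, or 0.223 over the 3 genes of that step detected in all samples. In the 10 alternative analyses that can move a ratio the first stayed below all genes (-0.33 to -0.117). Pyruvate entry and dehydrogenase stayed above (0.011 to 0.201), as did lower glycolysis (0.102 to 0.238). These are medians of 7, 9 and 4 genes, given as a description. Less that of all genes, the other medians were -0.101 for hexose transporters, 0.146 for monocarboxylate transporters and 0.045 for upper glycolysis. They were 0.018 for lactate dehydrogenases and 0.082 from citrate to 2-oxoglutarate. Each of these other steps lay below all genes in some of the 10 alternatives and above in the rest. Differences within a heifer were taken for 16 pairs of subunits or isozymes and tested by an exact two-sided permutation of signs over 4 heifers, in which the smallest p possible is 0.125. No pair could therefore reach 0.05. The 3 pairs with one sign in all heifers were PFKL less PFKP, MPC1 less MPC2 and ENO1 less ENO2 (exact permutation p = 0.125, 0.5 after adjustment over the 16 pairs). PFKP and ENO2 were each over background in only 2 of the 14-month samples.

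The ratios of many members differed between the 2 dye orientations, which were also different heifers, so dye and heifer cannot be told apart here. The mean of heifers 1 and 2 and that of heifers 3 and 4 had opposite signs in 24 of 42 members, 57.1%, against 44.2% of all genes. The fitted dye term had a median size of 0.232 in the members and 0.131 in all genes. The median ratio of Cy5 over Cy3, whatever the age, was 0.143, 0.179, 0.111 and 0.052 for the members in heifers 1 to 4, while for all genes it was between -0.013 and 0.013. The member spots were also bright, with a median log2 intensity of 12.295, at percentile 90.3 of all tested genes, which is a property of the spots and does not rank transcript levels. Whether brightness accounts for the dye term was not tested. Across the 42 members, Pearson's r between heifers was 0.605 for heifers 1 and 2 and 0.296 for heifers 3 and 4, and between heifers of opposite orientation it was -0.213 to 0.093. Over all genes these values were 0.6, 0.375 and -0.046 to 0.18. The members share arrays and amplification, so these correlations across genes are a description.

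**Figure D4:**
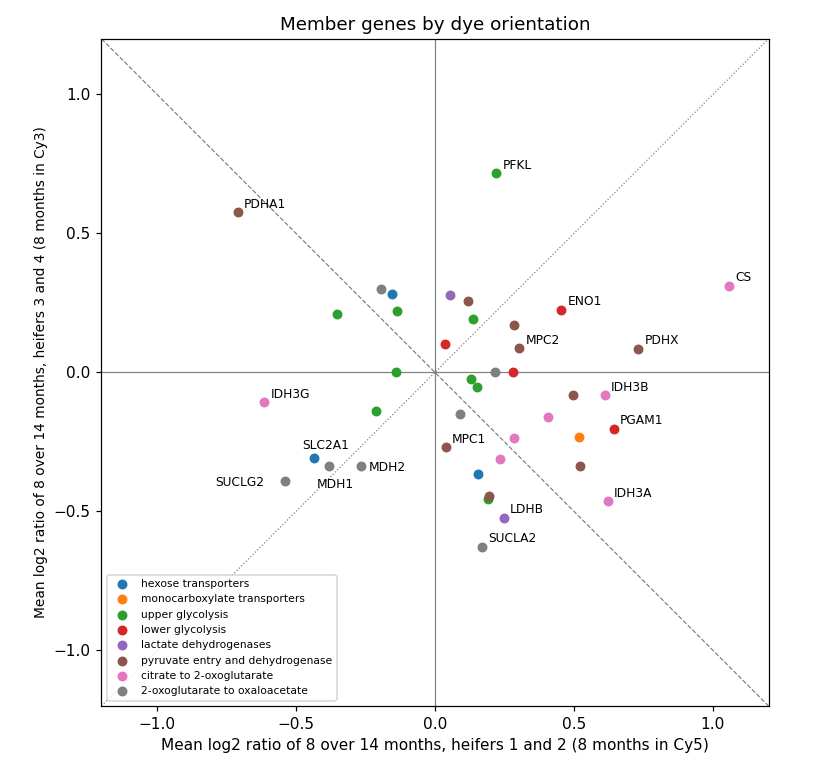
Mean log2 ratio of 8 over 14 months in heifers 3 and 4 (8-month embryos in Cy3, vertical axis) against that in heifers 1 and 2 (8-month embryos in Cy5, horizontal axis) for 42 genes, coloured by step. Genes on the dotted line have equal ratios in both orientations and genes on the dashed line have ratios of equal size and opposite sign; CS, ENO1 and PFKL lie at the upper right of the centre, SUCLG2, SLC2A1, MDH1 and IDH3G at the lower left, and 24 genes, among them PDHA1 and IDH3A, at the upper left or lower right.

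Of 12 members with several tested probes, all probes of the gene had the same sign in 8. The exceptions were SLC2A1, ENO1, PDHA1 and IDH3G, among them 3 of the 8 members with an unadjusted p under 0.05. In SLC2A1, ENO1 and PDHA1 the probe of differing sign was over background in 3, 2 and 2 of the 14-month samples. In IDH3G it was over background in 4 of 4 samples at each age. For CS, PDHB and MDH1, which also had several probes, the sign was shared by all of them. PFKL, PDHX and SUCLG2 had 1 tested probe each, so no second probe bears on them.

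**Figure D5:**
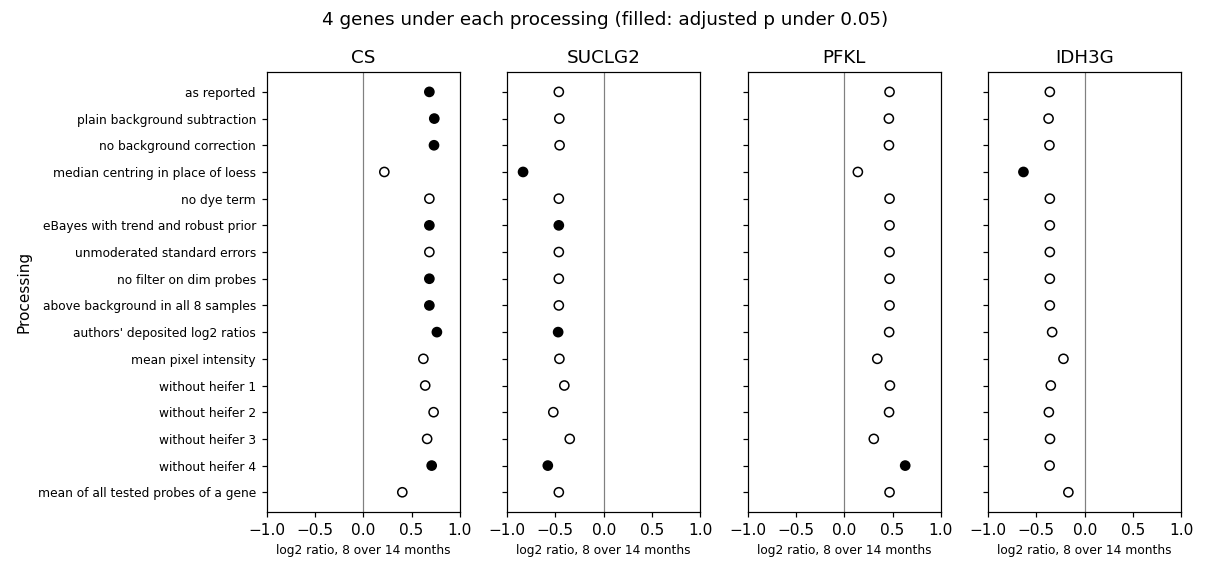
Fitted log2 ratio of 8 over 14 months (horizontal axis) of CS, SUCLG2, PFKL and IDH3G under the reported processing and 15 alternatives (rows); filled points passed at an adjusted p under 0.05 and open points did not. All 4 genes keep their direction in every row, although 5 of the alternatives leave the ratio as it is, and CS is filled in the reported row and 7 others.

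Other genes of carbohydrate metabolism, on lists drawn up by pathway, were set beside the members. Of 21 tested genes of other glycolytic, gluconeogenic and glycogen enzymes 0 passed (limma), and 3 had an unadjusted p under 0.05, 14.3% against 27.3% of all genes. They were G6PC3, a glucose-6-phosphatase (-0.387 ± 0.098, adjusted p = 0.0593), PGM1, phosphoglucomutase (-0.416 ± 0.129), and PYGB, glycogen phosphorylase (0.416 ± 0.116). Each of the 3 had the same sign in 4 of 4 heifers. Of 11 genes of the pentose phosphate pathway 0 passed, and 4 had an unadjusted p under 0.05, 36.4% against 27.3% of all genes. The transketolases TKT (-0.307) and TKTL1 (-0.403) were negative, and TALDO1 (0.364) and PRPS2 (0.367) were positive. Neither of 2 other tested sugar and monocarboxylate transporters passed, nor had an unadjusted p under 0.05.

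Among 23 further genes of pyruvate metabolism and the TCA cycle, 2 passed, 8.7% against 4.5% of all genes. That share includes SLC25A12, whose p is not support for a difference, and counts this small say nothing particular about these genes. ACSS1, which makes acetyl-CoA from acetate in mitochondria, was higher, with 1.328, 0.88, 0.626 and -0.033 (0.70 ± 0.136, adjusted p = 0.0379), and heifer 4 did not share the difference. SLC25A12, an aspartate-glutamate carrier of the malate-aspartate shuttle, was over background in 0 of the 8-month samples and 3 of the 14-month samples. It entered the test through the 14-month samples alone, so its p is a description and not support for a difference. Its fitted ratio was -0.479 ± 0.109 (limma, adjusted p = 0.0483). In normalized channel intensity the 8-month mean was 1.32-fold lower, which is a description without a test. For this value, each 8-month intensity was set no lower than the dimmest detected probe of its array. Succinate dehydrogenase, which stands between succinyl-CoA ligase and fumarase, had ratios of both signs. SDHA (-0.296 ± 0.097, adjusted p = 0.104) and SDHB (-0.340 ± 0.100, adjusted p = 0.0819) were negative in 4 of 4 heifers, SDHC was positive in 4 of 4 (0.235), and SDHD had 0.783, 0.771, -0.219 and -0.039.

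Of 16 tested regulators of these pathways, 2 passed, 1 higher and 1 lower at 8 months, 12.5% against 4.5% of all genes, and counts this small say nothing particular about regulators. ESRRA, a nuclear receptor that in mouse and human cells activates genes of the TCA cycle and respiration, had 1.17, 0.684, 0.416 and 0.771 (0.76 ± 0.12, adjusted p = 0.0313), positive in every heifer. TXNIP, which restrains glucose uptake, had -0.725, -1.118, -0.217 and 0.065 (-0.499 ± 0.112, adjusted p = 0.0478).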

How the data were processed

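RNA of early blastocysts was measured on 4 two-colour arrays, 1 per heifer, all on the same slide by the table names, so no slide batch could be tested. The deposited scanner tables give, per the file headers, raw intensity inside each spot and in its surroundings for Cy3 and Cy5, on a linear scale without normalization. No source used here names the image software. The authors also deposited log2 ratios per spot, used as an alternative; set against the scanner values they read Cy5 over Cy3 on every array (r = 0.997, 0.997, 0.961 and 0.996 with the normalized ratios used here, slopes 0.976 to 1.016, column medians -0.0094 to 0.0036), and how their background was corrected is not stated. The deposited series value table holds the same log2 values with the sign turned for heifers 3 and 4.

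Median intensities were corrected with normexp (offset 50) and normalized within arrays by loess (limma 3.58.1, R 4.3.3); 1426 control or unnamed spots were left out. A channel was above background where it exceeded the mean of 153 negative controls by 2 SD. Probes above background in 3 of 4 samples of an age were tested (17685). Symbols came from the platform annotation, updated through RefSeq synonyms (assembly ARS-UCD2.0, names only). Age was fitted with lmFit and eBayes with a dye term (2 residual degrees of freedom), two-sided, adjusted by Benjamini-Hochberg over genes, and separately over probes. Channel levels are log2 intensities after loess and Aquantile scaling and are compared within a probe only. Precision is limited by the number of arrays. Alternatives changed background correction, normalization, the dye term, moderation, the filter on dim probes, the pixel statistic and the probe of a gene, used the deposited log2 ratios, or left out 1 heifer. The script was tested on simulated data.

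The members and the gene lists were chosen with earlier results of these data known. All 49 members are named. Full values are given for members with an unadjusted p under 0.05, the highest and lowest of each step, and a set of transporters, isozymes and control enzymes listed by name. TPI1, PGAM1, the pyruvate carrier, PDHB, DLD, IDH3A, IDH3B, SUCLA2, MDH2, OGDH and the genes of other lists were added after their values were seen.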

Additional observations from a re-analysis of the deposited data

Results flagged for a closer look

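In 4 of 42 members the ratio of 1 heifer stood apart from the other 3, by the ratio of its gap to the range of the 4 values (Dixon's test at the 95% level). Chance flags about 1 in 20 groups. The share of all genes flagged in this way was not taken, so the count says nothing particular about the members. MPC1 had 0.288 in heifer 2, against -0.294 to -0.209 in the others. MPC2 had 0.577 in heifer 2, against 0.031 to 0.104 in the others, so both subunits of the pyruvate carrier stood apart in the same animal and direction. SLC2A8 had 0.654 in heifer 3, against -0.208 to -0.091 in the others. PFKP had 0.155 in heifer 3, against -0.154 to -0.130 in the others.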

How the results depend on the processing

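Of 627 recomputed member ratios over 15 alternatives, 237 are the reported ratio by construction: 5 alternatives alter only the error, the adjustment or the set of genes, and a mean of probes leaves a gene with 1 probe as it is. Of the other 390, 344 kept their direction, and 14 of 42 members, CS among them, turned in none. Median centring in place of loess moved the median of all genes to -0.183, so its signs are relative to that shift. The median member went to -0.249, and 20 positive ratios turned negative: SLC2A8 (-0.114), SLC16A1 (-0.244), HK2 (-0.314), GPI (-0.215), ALDOA (-0.344), TPI1 (-0.174), PGK1 (-0.257), PGAM1 (-0.203), LDHA (-0.205), MPC2 (-0.172), PDHB (-0.253), DLD (-0.012), PDK1 (-0.137), PC (-0.018), ACO1 (-0.228), IDH3A (-0.312), IDH3B (-0.038), ACLY (-0.340), OGDH (-0.169) and FH (-0.290). IDH1 turned to 0.008 with plain background subtraction, 0.006 with no background correction and 0.062 with the authors' deposited log2 ratios, and PDHA1 to 0.060 with the mean of its tested probes. The leave-one-heifer-out values that crossed 0 ranged as follows: SLC2A3 -0.255 to 0.046, SLC2A8 -0.123 to 0.249, HK2 -0.053 to 0.135, PFKM -0.227 to 0.082, PFKP -0.147 to 0.007, ALDOA -0.017 to 0.122, TPI1 -0.379 to 0.475, PGK1 -0.004 to 0.142, MPC1 -0.239 to 0.009, PDHA1 -0.163 to 0.028, DLAT -0.347 to 0.097, IDH1 -0.099 to 0.022, IDH3A -0.075 to 0.233, ACLY -0.028 to 0.077, OGDH -0.147 to 0.253 and SUCLG1 -0.100 to 0.039. The cause was not tested.

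Median centring passed 2078 genes (39 higher and 2039 lower, against 143 and 235 as reported), 3416 probes and 12 members, all lower. A trended and robust prior passed 701 genes, 1055 probes and 2 members (CS and SUCLG2), and the authors' deposited log2 ratios passed the same 2 members. Using limma without a dye term, with unmoderated errors or with mean pixel intensity, 0 genes, 0 probes and 0 members passed (1544, 1263 and 2257 genes at an unadjusted p under 0.05). Plain or no background subtraction passed 0 probes (4579 and 4506 at an unadjusted p under 0.05), keeping dim probes passed 1013 probes, and the mean of a gene's probes passed 207 genes and 0 members. Without 1 heifer, 0 to 339 genes, 0 to 1180 probes and 0 to 3 members passed: genes numbered 0, 0, 2 and 339 without heifers 1, 2, 3 and 4. The reported fit is itself paired, since each array holds both ages of 1 heifer, and no further replicate block could be added.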
